A study of Mus musculus with 18 samples.

Results

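The genes described here are 10 genes of the calcium cycle of the cardiac muscle cell, measured by RNA sequencing of mouse left ventricle (LV): Atp2a2, Pln, Ryr2, Casq2, Slc8a1, Cacna1c, Camk2d, Hrc, Trdn and Jph2. They were taken by symbol from a table of 55450 genes, and all 10 were among the 16270 genes with enough counts to be tested. LV was taken from male wild type (WT) mice and from males with a cardiac transgene for Gαq, a signalling protein that Gnaq encodes and that couples receptors for angiotensin and endothelin to calcium release. Both genotypes had the FVB/N background. Each genotype received control diet (CD) or chow with the SGLT2 inhibitor ertugliflozin (ERTU) at 0.5 mg per g from 4 to 20 weeks of age. WT was represented by 4 hearts on CD and 5 on ERTU, and Gαq by 5 hearts on CD and 4 on ERTU, with 1 library for each heart. The promoter that drives the transgene is not given in the sources used here, and LV is a mixture of cell types.

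In each heartbeat a little calcium enters the myocyte through the L-type channel, whose pore is encoded by Cacna1c, and triggers a larger release from the sarcoplasmic reticulum (SR) through the ryanodine receptor, encoded by Ryr2. For relaxation, calcium is pumped back into the SR by the SERCA2 pump, encoded by Atp2a2, and is moved out of the cell by the sodium-calcium exchanger, encoded by Slc8a1. Phospholamban, encoded by Pln, inhibits the pump until it is phosphorylated. A low level of SERCA2 relative to phospholamban is a known feature of failing hearts, where calcium reuptake is slow. Overexpression of Gαq in the mouse heart is a known model of dilated cardiomyopathy.

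Library totals ran from 15383566 to 20908363 counts, and the lowest count of any of the 10 genes in any library was 1986. Levels are given as CPM, counts scaled to the size of each library after correction by the trimmed mean of M-values (TMM), and libraries are named by group and by the number in the count table (1, 2, 4 and 5 for WT CD, 6 to 10 for Gαq CD, 11 to 15 for WT ERTU, and 16, 17, 18 and 20 for Gαq ERTU). Values are listed in that order. As a check of the labels, Gnaq ran from 45.5 to 229.7 CPM in the 9 WT libraries and from 1640.9 to 11672 CPM in the 9 Gαq libraries. Within Gαq hearts the mean Gnaq level was 7472.7 ± 3817.9 CPM (SD) on CD and 3216.5 ± 1370.6 CPM on ERTU, with overlap. The log2 fold change of ERTU against CD was -1.22 (95% interval -2.30 to -0.13). By the edgeR quasi-likelihood test the unadjusted p was 0.0294 and the adjusted p was 0.653, so it was not called. The part of the Gnaq level in the comparisons of diets within Gαq was not tested.

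The sequences just before the start sites of 3 of these genes are shown because the data separated them: Ryr2 and Slc8a1 were lower in Gαq hearts while Pln was not called. Each is the 250 bases before the RefSeq start site on build GRCm38.p6, read 5′ to 3′ on the strand of the gene. Capitals mark 3 motifs on either strand: TATAAA, which is called a TATA box, then the letters GATAA that proteins such as Gata4 bind, called a GATA motif here, and the E-box, which reads CANNTG. The Ryr2 window is chr13:12106946-12107195 (minus strand), the Slc8a1 window is chr17:81738388-81738637 (minus strand) and the Pln window is chr10:53337436-53337685 (plus strand).
Ryr2: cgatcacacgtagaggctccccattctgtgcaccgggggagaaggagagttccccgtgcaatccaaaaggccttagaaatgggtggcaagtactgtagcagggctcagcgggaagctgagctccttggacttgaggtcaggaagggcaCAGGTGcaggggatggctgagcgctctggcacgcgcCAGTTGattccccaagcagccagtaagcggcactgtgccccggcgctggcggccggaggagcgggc
Slc8a1: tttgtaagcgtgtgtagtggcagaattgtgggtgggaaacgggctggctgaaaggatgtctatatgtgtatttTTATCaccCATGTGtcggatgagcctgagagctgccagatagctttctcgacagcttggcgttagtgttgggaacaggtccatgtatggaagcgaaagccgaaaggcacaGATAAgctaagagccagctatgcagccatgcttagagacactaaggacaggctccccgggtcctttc
Pln: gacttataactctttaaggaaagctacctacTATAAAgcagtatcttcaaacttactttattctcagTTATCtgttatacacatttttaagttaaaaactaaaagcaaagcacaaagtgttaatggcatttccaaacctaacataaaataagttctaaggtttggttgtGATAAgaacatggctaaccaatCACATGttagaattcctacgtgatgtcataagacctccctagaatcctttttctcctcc
The Ryr2 window held 2 E-boxes and no GATA motif. Slc8a1 and Pln each held 1 E-box and 2 GATA motifs, and Pln also held a TATA box. RefSeq windows were given for 8 of the 10 genes, 11 windows in all because Cacna1c has 3 and Jph2 has 2. Atp2a2 and Trdn had none, so the sequence before Atp2a2, which was also lower in Gαq, could not be shown. The 2 Jph2 windows share 230 of their 250 bases and hold the same E-box and the same GC box, so the windows are not separate counts. An E-box was found in 10 of the 11 windows (7 of 8 genes), against 66.2% of 32817 windows over all genes. A GATA motif was found in 3 (22.6% of all windows), a GC box (GGGCGG) in 5, of 4 genes (32.7%), a TATA box in 1 (12.4%) and the MEF2 motif in 1, that of Casq2 (2.92%). No window held a CArG box (1.47%). These counts describe letters and not binding.

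The 10 genes together held 2.64 to 2.87% of all counts in WT CD, 2.39 to 3.29% in WT ERTU, 1.66 to 2.12% in Gαq CD and 1.63 to 2.16% in Gαq ERTU. No Gαq library reached the lowest WT library. The largest part was Atp2a2, at 1.34 to 1.95% of counts in WT libraries and 0.691 to 1.01% in Gαq libraries. Per kilobase of exon, Atp2a2 led in WT CD with 2623 ± 64.5 CPM per kb (SD), followed by Pln at 2084.5 ± 355.4, Hrc at 549.2 ± 94.6, Casq2 at 234.2 ± 46.0 and Jph2 at 138.8 ± 25.3. Ryr2 stood at 70.4 ± 7.74, Trdn at 45.9 ± 6.64, Slc8a1 at 21.8 ± 3.44, Cacna1c at 18.8 ± 1.03 and Camk2d at 6.62 ± 1.00 CPM per kb. In Gαq CD, Pln led with 2038 ± 236.7 CPM per kb and Atp2a2 came after it with 1375 ± 255.0. The plot of levels by library shows that the genotypes separate fully for Atp2a2 and mostly for Ryr2 and Slc8a1.

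**Figure D1:**
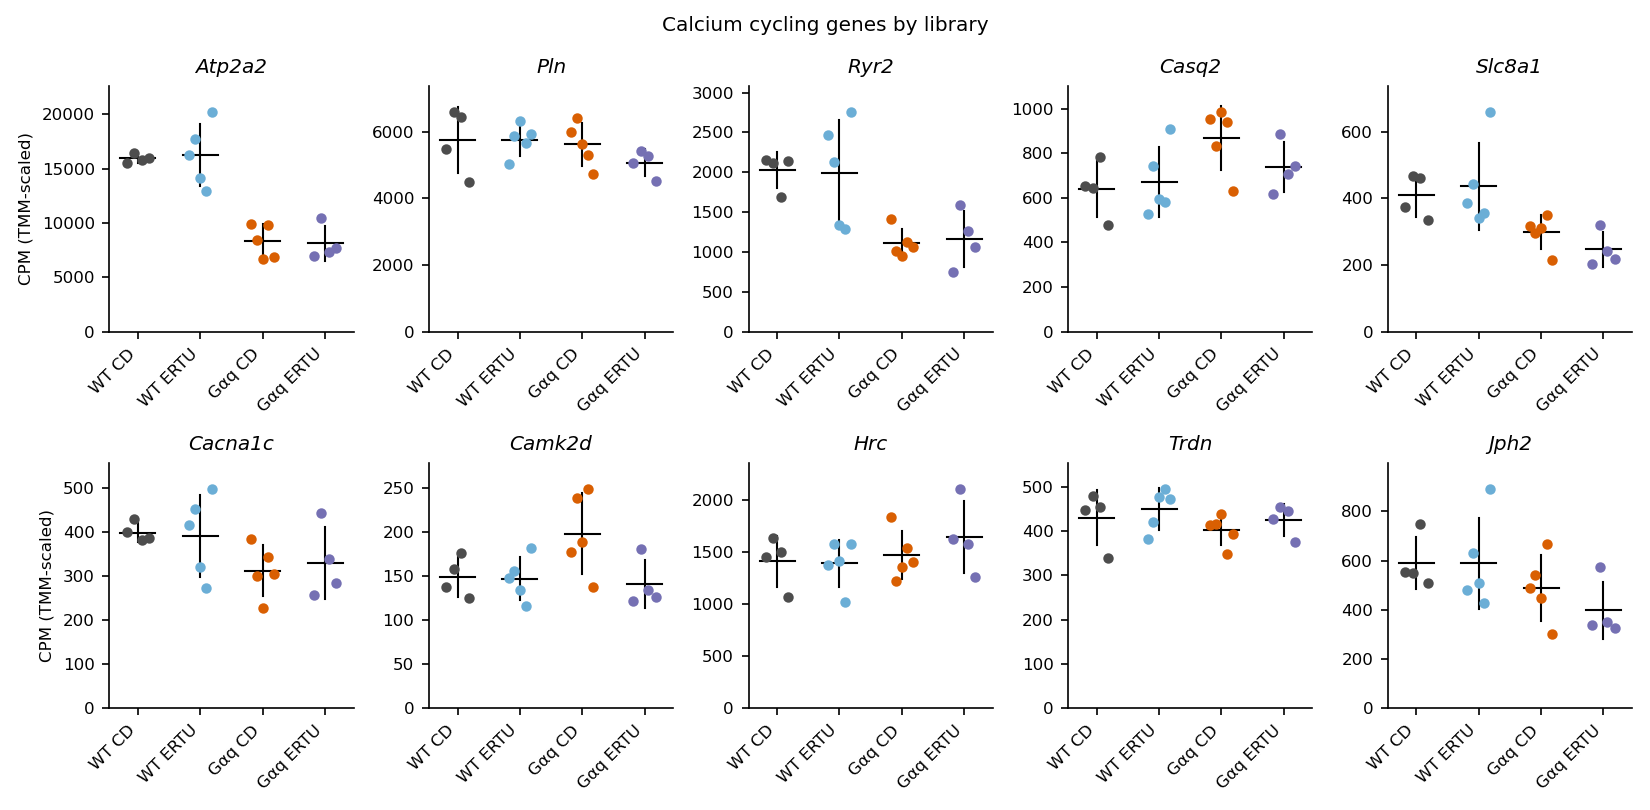
TMM-scaled CPM of the 10 calcium cycling genes in each of 18 LV libraries (points), by genotype and diet, with the group mean (horizontal bar) and SD (vertical bar); each axis starts at 0. For Atp2a2 the 9 Gαq libraries lie between 6697.5 and 10484 CPM, below the 9 WT libraries at 12980.0 to 20188 CPM.

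The comparison of genotypes asked how these genes differ between Gαq and WT hearts. Atp2a2, Ryr2 and Slc8a1 fell in Gαq, and the other 7 genes were not called. The count was thus 3 of 10 lower and 0 higher by a model of genotype and diet, at an adjusted p under 0.05 that 19.6% of all genes tested passed (9.92% lower and 9.72% higher). With 10 genes this count does not set them apart from that background. At an unadjusted p under 0.05 it was 6 of 10, against 31.9% of all genes. The median log2 fold change over the 10 genes was -0.20, against 0.00 over all genes. On CD, 2 of 10 were called, Atp2a2 and Ryr2, both lower (8.1% of all genes, 4.1% lower), and 5 of 10 had an unadjusted p under 0.05 (21.0% of all genes). On ERTU, 3 of 10 were called, Atp2a2, Ryr2 and Slc8a1, all lower (8.17% of all genes, 4.24% lower and 3.93% higher), and 4 of 10 had an unadjusted p under 0.05 (21.7% of all genes).

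Atp2a2 (ENSMUSG00000029467, GRCm38 chromosome 5, 122453513 to 122502225, minus strand) stood at 15546.5, 16479.5, 15816 and 15962 CPM in WT CD and at 9921.5, 8462, 6697.5, 9853 and 6885 CPM in Gαq CD. With ERTU the values were 16217, 17686, 14126, 12980.0 and 20188 CPM in WT and 6937, 10484, 7337 and 7729.9 CPM in Gαq. Every Gαq library lay below every WT library, a separation that 3.56% of genes tested showed, 1.83% in the lower direction. The means were in the order WT ERTU (16239.5 ± 2862.5, SD), WT CD (15951 ± 392.1), Gαq CD (8364 ± 1550.5) and Gαq ERTU (8122 ± 1608), with overlap within each genotype. Gαq fell by 0.97 ± 0.11 (log2, SE) with diet in the model, a 1.95-fold difference (edgeR quasi-likelihood test, adjusted p = 2.94e-06). The log2 fold change was -0.93 ± 0.16 on CD (adjusted p = 0.000921) and -1.0 ± 0.17 on ERTU (adjusted p = 0.000686). In bulk tissue, fewer myocytes and less RNA per myocyte cannot be told apart, and counts per gene do not separate the splice forms of SERCA2.

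Markers of cardiac muscle cells were set beside this result. Of 10 such genes, 1 rose with genotype (Mybpc3, log2 fold change 0.42) and 3 fell (Ckm -0.63, Myl3 -0.33 and Tnni3 -0.27). Of all genes tested, 9.72% rose and 9.92% fell. Ckm was also called on each diet. The rest, among them Tnnt2, Myl2 and Mb, were not called, and the median log2 fold change over the 10 was -0.04. Their summed level ran from 54943 to 79299.5 CPM in WT libraries and from 62851 to 77420.4 CPM in Gαq libraries, with overlap. Of 8 fibroblast markers 6 rose (median log2 fold change 0.62), against 9.72% of all genes. Their summed level was 1542 to 3149 CPM in WT and 2897 to 4389.7 CPM in Gαq. Of 7 endothelial markers 2 fell (median -0.23), against 9.92% of all genes, and 1 of 3 lymphocyte markers tested rose, against 9.72%. No marker of smooth muscle (5 tested), macrophages (6), fat (5) or red blood cells (4) was called, against 19.6% of all genes. The part of these cell types in the results was not tested.

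Ryr2 (ENSMUSG00000021313, chromosome 13, 11553102 to 12106945, minus strand) encodes the channel through which the SR releases calcium. It stood at 2155, 2119.8, 1694 and 2142 CPM in WT CD and at 1413, 1006, 946.9, 1125 and 1067 CPM in Gαq CD, without overlap (9.29% of all genes did not overlap on CD). With ERTU it was 2465, 2133, 1334, 1292 and 2752 CPM in WT and 751.3, 1583, 1261 and 1061 CPM in Gαq. WT ERTU libraries 13 and 14 were within the range of the Gαq libraries, and 7 of 9 Gαq libraries lay below all WT libraries. With diet in the model Gαq fell by 0.82 ± 0.15 (log2, SE), 1.77-fold, with an adjusted p of 0.000531. The log2 fold change was -0.87 ± 0.22 on CD (adjusted p = 0.0171) and -0.78 ± 0.22 on ERTU (adjusted p = 0.035). On CD the call was lost without WT CD library 1 (-0.84, adjusted p = 0.0532). With ERTU it was lost without any 1 of WT ERTU libraries 11, 12 and 15 and Gαq ERTU libraries 16, 18 and 20 (log2 -0.82 to -0.62, adjusted p from 0.0676 to 0.116).

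Slc8a1 (ENSMUSG00000054640, chromosome 17, 81373105 to 81738377, minus strand) encodes the exchanger that carries most calcium out of the myocyte. Its values were 374.7, 466.9, 461.0 and 336.0 CPM in WT CD and 318.1, 297.0, 311.1, 351.6 and 216.0 CPM in Gαq CD, where library 9 overlapped with WT. In ERTU hearts they were 384.8, 442.6, 341.2, 355.7 and 658.7 CPM in WT and 203.6, 320.2, 243.5 and 219.0 CPM in Gαq, without overlap (10.9% of all genes on ERTU). With diet in the model Gαq fell by 0.64 ± 0.14 (log2, SE), 1.56-fold (adjusted p = 0.0018). On ERTU the log2 fold change was -0.82 ± 0.19 (adjusted p = 0.00839), and on CD it was -0.46 ± 0.19 and not called (adjusted p = 0.151). The difference between these 2 values, the interaction, was -0.37 with a 95% interval of -0.92 to 0.18 (adjusted p = 1.0), so a larger fall on ERTU was not shown. The exons of Slc8a1 overlap the gene Gm11096 on the other strand, and per the methods only read pairs of the same strand were counted.

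Pln (ENSMUSG00000038583, chromosome 10, 53337667 to 53345987, plus strand) encodes the inhibitor of the pump. It stood at 5476, 6587, 6459 and 4483 CPM in WT CD, 6008, 6430.2, 5635, 5316 and 4722 CPM in Gαq CD, 5025, 5874, 6332, 5665 and 5934 CPM in WT ERTU, and 5054, 5427.5, 5289 and 4514 CPM in Gαq ERTU. All groups overlapped. The log2 fold change with genotype was -0.11, with a 95% interval of -0.30 to 0.08 (adjusted p = 0.437), an interval that leaves out a fall as large as that of Atp2a2. It was -0.03 on CD (interval -0.30 to 0.23) and -0.19 on ERTU (interval -0.45 to 0.08). Exons of Pln overlap Cep85l on the other strand, which reached at most 45.2 CPM in any library.

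The ratio of Pln to Atp2a2 counts within each library shows how much the inhibitor differs relative to the pump, independent of library scaling. It was 0.352, 0.400, 0.408 and 0.281 in WT CD and 0.606, 0.760, 0.841, 0.540 and 0.686 in Gαq CD. In ERTU hearts it was 0.310, 0.332, 0.448, 0.436 and 0.294 in WT and 0.729, 0.518, 0.721 and 0.584 in Gαq. Every Gαq library lay above every WT library, with 0.281 to 0.448 in WT and 0.518 to 0.841 in Gαq. Per kilobase of exon the mean ratio was 0.794 ± 0.129 (SD) in WT CD, 0.803 ± 0.160 in WT ERTU, 1.51 ± 0.264 in Gαq CD and 1.41 ± 0.229 in Gαq ERTU. Thus, per kilobase of exon, Pln had fewer counts than Atp2a2 in all 9 WT libraries (ratio at most 0.988) and more in all 9 Gαq libraries (at least 1.14). The length covers all annotated exons of a gene, and the transcript forms expressed were not measured. Which of the genes led thus depends on that choice of length.

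The mean log2 ratio was higher in Gαq by 0.87 over both diets, 1.83-fold, with a 2-sided exact permutation p of 0.000126, the smallest that 15876 splits within diet can give (0.000756 adjusted over 6 comparisons of the ratio). It was higher by 0.93 on CD, 1.90-fold (exact p = 0.0159, adjusted 0.0317), and by 0.82 on ERTU, 1.76-fold (exact p = 0.0159, adjusted 0.0317), where 0.0159 is the smallest p that 126 splits allow. ERTU moved it by 0.01 in WT (exact p = 0.937) and by -0.10 in Gαq (exact p = 0.54). The diet difference over both genotypes was -0.05 (exact p = 0.691). These tests use the relative levels of transcripts, and protein and phosphorylation were not analysed here.

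**Figure D2:**
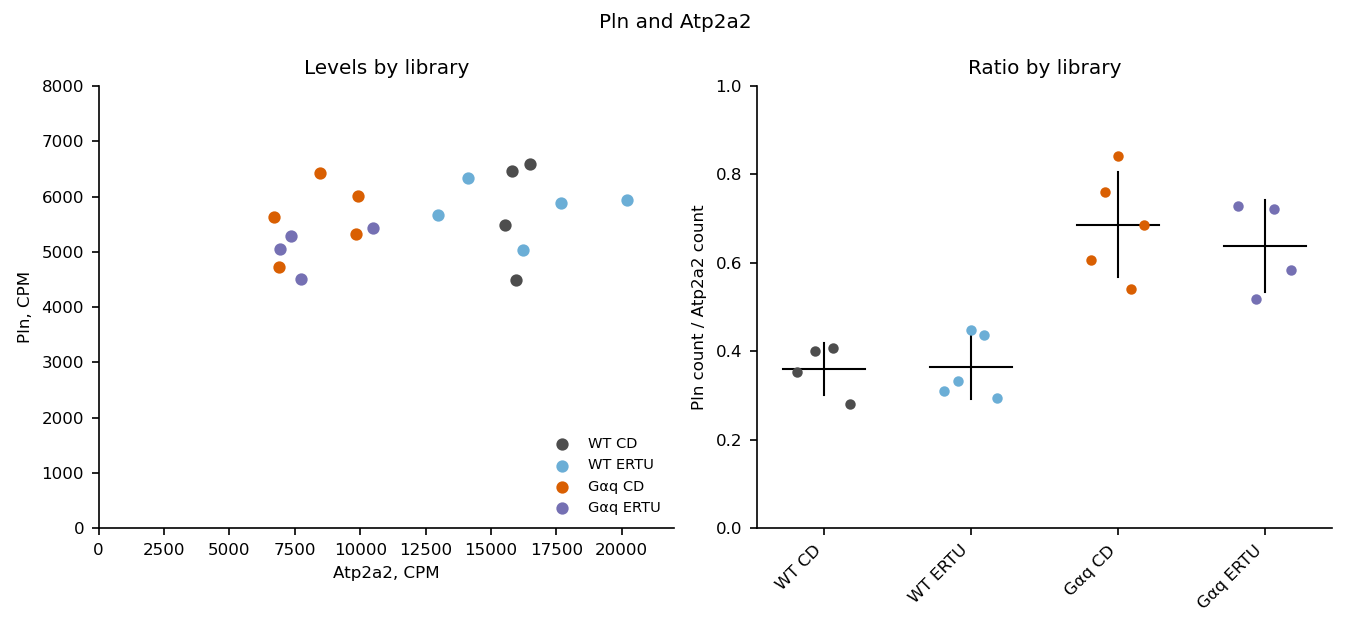
Left, Pln against Atp2a2 in TMM-scaled CPM, 1 point per library; right, the ratio of Pln to Atp2a2 counts by group, with mean and SD bars. The genotypes separate along the Atp2a2 axis and not along the Pln axis, and the ratio is at most 0.448 in WT and at least 0.518 in Gαq.

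The 4 of the 10 genes that encode proteins of the SR lumen or its junction with the surface membrane, Casq2, Jph2, Hrc and Trdn, were not called in any comparison by the quasi-likelihood test. Casq2, which encodes the cardiac calsequestrin that stores calcium in the SR, stood at 654.8, 643.9, 785.7 and 478.7 CPM in WT CD and at 955.3, 831.4, 984.2, 940.7 and 631.8 CPM in Gαq CD. In ERTU hearts Casq2 was at 527.8, 741.1, 597.0, 581.0 and 910.6 CPM in WT and 618.4, 885.4, 707.1 and 744.0 CPM in Gαq. Of the 5 Gαq CD libraries 4 were above all WT CD libraries, and library 10 was not. The log2 fold change with genotype was 0.29 (95% interval 0.03 to 0.55, adjusted p = 0.109), and without WT ERTU library 15 it was 0.36 and called (adjusted p = 0.0271). It was 0.44 on CD (interval 0.08 to 0.80, adjusted p = 0.135) and 0.14 on ERTU (interval -0.22 to 0.49).

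Jph2 encodes junctophilin, which holds the SR close to the surface membrane. Its values were 554.7, 548.3, 749.3 and 509.9 CPM in WT CD, 487.7, 542.7, 448.1, 669.2 and 302.6 CPM in Gαq CD, 481.8, 633.0, 509.8, 426.3 and 892.3 CPM in WT ERTU, and 339.7, 573.2, 349.2 and 327.0 CPM in Gαq ERTU. In Gαq ERTU 3 of 4 libraries were below all WT libraries, and library 17 lay within their range. The log2 fold change with genotype was -0.42 (95% interval -0.76 to -0.08, adjusted p = 0.0766). It was called without Gαq ERTU library 17 (-0.51, adjusted p = 0.0361), without Gαq CD library 9 (-0.49, adjusted p = 0.0323) and by limma voom with quality weights (-0.51, adjusted p = 0.0144). Between ERTU groups it was -0.57 (adjusted p = 0.148), and without library 17 it was -0.80 (adjusted p = 0.0446).

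Hrc and Trdn overlapped between genotypes on either diet. Hrc, a histidine-rich calcium binding protein of the SR lumen, ran from 1022 to 1628 CPM in WT and from 1222 to 2104 CPM in Gαq, with a log2 fold change of 0.15 (95% interval -0.09 to 0.39). Trdn, which encodes triadin, the anchor between calsequestrin and the ryanodine receptor, ran from 338.6 to 495.3 CPM in WT and from 348.9 to 453.6 CPM in Gαq. Its log2 fold change was -0.09 (interval -0.25 to 0.07). These intervals leave out a change of 0.5 on the log2 scale in either direction.

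At the surface membrane, Cacna1c stood at 398.7, 429.0, 380.3 and 385.2 CPM in WT CD, 383.7, 300.5, 227.3, 342.9 and 304.4 CPM in Gαq CD, 415.3, 451.3, 320.1, 272.5 and 497.6 CPM in WT ERTU, and 255.6, 441.6, 337.8 and 283.3 CPM in Gαq ERTU. On CD only Gαq library 6 reached the WT range, while on ERTU the genotypes overlapped. The log2 fold change with genotype was -0.30 (95% interval -0.56 to -0.04, adjusted p = 0.0927). It was called without WT ERTU library 14 (-0.35, adjusted p = 0.0316) and without Gαq ERTU library 17 (-0.39, adjusted p = 0.0253).

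Camk2d encodes the main cardiac form of the calcium and calmodulin dependent kinase II, which phosphorylates phospholamban and the ryanodine receptor. It stood at 137.8, 157.5, 176.0 and 124.7 CPM in WT CD and at 177.0, 238.7, 188.7, 248.9 and 137.4 CPM in Gαq CD. ERTU hearts had 147.8, 155.5, 133.5, 116.4 and 182.0 CPM in WT and 121.0, 180.5, 134.0 and 126.0 CPM in Gαq. Of the 5 Gαq CD libraries 3 were above all libraries of the other groups, whose ranges overlapped. On CD the log2 fold change with genotype was 0.41 (95% interval 0.06 to 0.76, adjusted p = 0.156). Without Gαq CD library 10 it was 0.52 and called (adjusted p = 0.0499). Between ERTU groups it was -0.07 (interval -0.42 to 0.28). Splice forms of the kinase were not separated.

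**Figure D3:**
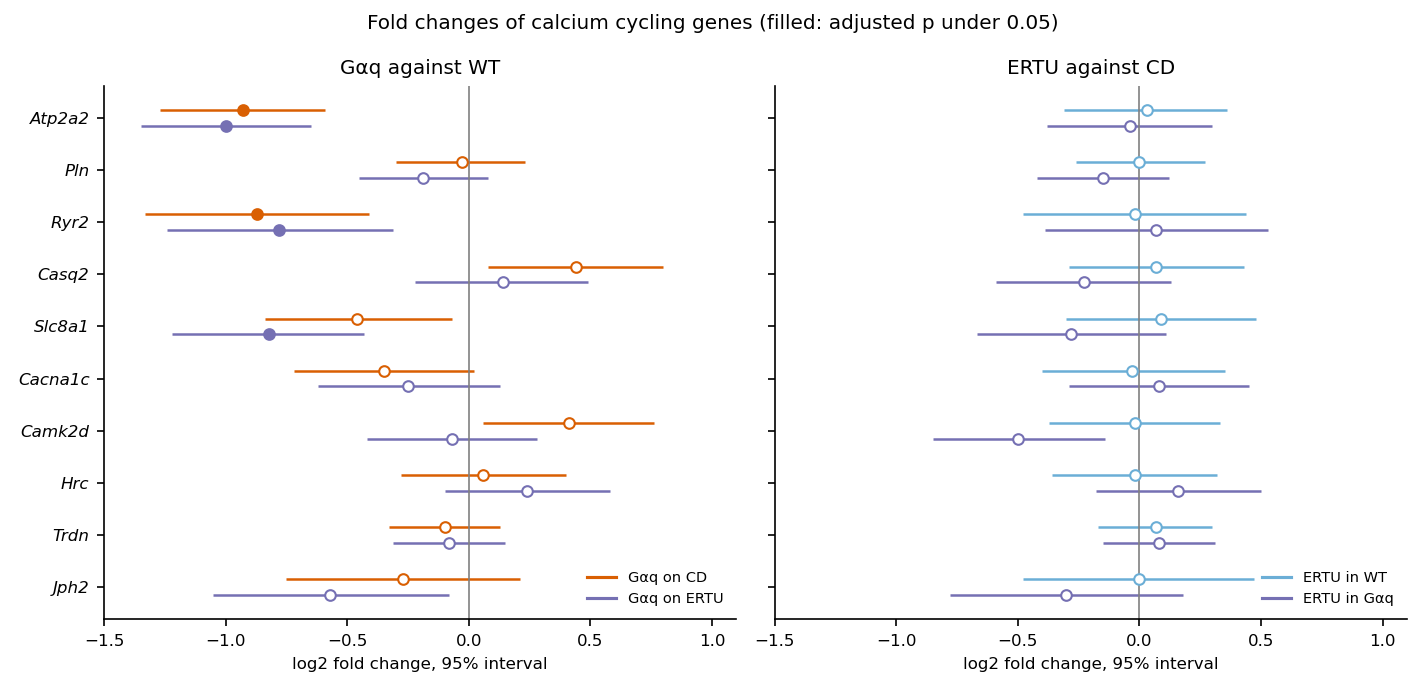
Log2 fold changes of the 10 genes with 95% intervals; left, Gαq against WT on CD and on ERTU; right, ERTU against CD in WT and in Gαq. Filled points passed an adjusted p of 0.05, which only Atp2a2, Ryr2 and Slc8a1 did, on the left; on the right the interval of Camk2d in Gαq (-0.85 to -0.14) lies below 0.

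The comparison of diets asked whether ERTU altered these genes. By the quasi-likelihood test 0 of the 10 genes were called for ERTU over both genotypes (0.0% of all genes called), within WT (0.0%), within Gαq (0.00615%) or for the interaction (0.0%). DESeq2 and limma voom also called 0 of the 10 in each. At an unadjusted p under 0.05 the counts were 0, 0, 1 and 0, against 7.7%, 2.24%, 7.62% and 1.92% of all genes. The 1 gene was Camk2d, which was lower on ERTU in Gαq by a log2 fold change of -0.50 ± 0.17 (SE, 95% interval -0.85 to -0.14, unadjusted p = 0.00827, adjusted p = 0.653). Its log2 fold change of ERTU against CD in WT was -0.02 (interval -0.37 to 0.33). The difference between the genotypes in this change was -0.48 (interval -0.98 to 0.02, unadjusted p = 0.0589).

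Within Gαq, ERTU and CD libraries overlapped for all 10 genes (1.6% of all genes did not), and in WT likewise (0.756%). None of the 3 genes that fell in Gαq was called between diets. For Atp2a2 the log2 fold change of ERTU in Gαq was -0.04 (95% interval -0.38 to 0.30), so a rise of more than 0.30 lies outside the interval, against the 0.93 by which Gαq differed from WT on CD. For Ryr2 it was 0.07 (interval -0.39 to 0.53) and for Slc8a1 -0.28 (interval -0.67 to 0.11). Gαq ERTU library 17 was the highest of its group for all 10 genes, and without it the values were -0.19 for Atp2a2 and -0.12 for Ryr2. In WT hearts the 10 changes with ERTU ran from -0.03 to 0.09, with interval bounds from -0.48 to 0.48.

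Within groups the 10 genes tended to deviate together. Of 45 pairs of genes, 26 had a Pearson correlation of deviations from the group mean above 0.5 over the 18 libraries, and the median was 0.56. These points share library, scaling and tissue sample, so the correlations are a description. No share for pairs of other genes was computed, so the count is not shown to be particular to these genes. The highest was 0.92 between Camk2d and Jph2, and the lowest was -0.22 between Ryr2 and Trdn. WT ERTU library 15 was the highest of its group for 8 of the 10 genes, and WT CD library 5 the lowest for 7 (Pln, Casq2 and Hrc among them). The summed level of 6 atrial markers (Myl7, Myl4, Sln, Bmp10, Dkk3 and Stard10) was also highest in its group in WT CD library 5 (363.0 CPM), as it was in WT ERTU library 14 (385.7), Gαq CD library 8 (968.8) and Gαq ERTU library 20 (631.2), with 30.1 to 278.5 CPM in the others. The 5 atrial markers tested were not called with genotype (median log2 fold change 1.16), against 19.6% of all genes called. Without those 4 libraries the calls by genotype were again Atp2a2, Ryr2 and Slc8a1. On CD the call of Ryr2 was then lost (log2 -0.79, adjusted p = 0.0632).

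**Figure D4:**
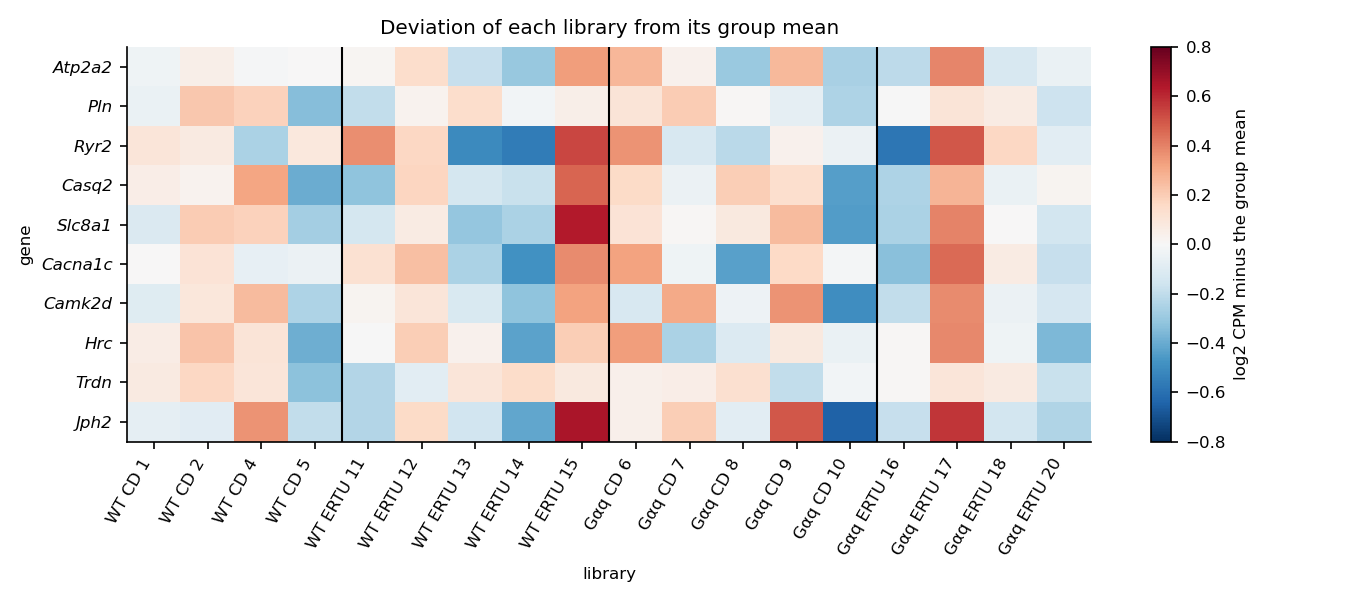
Log2 CPM of each of the 10 genes (rows) in each library (columns) minus the mean of its group; red is above and blue below the group mean, and lines part the groups. Columns tend to hold 1 colour, most clearly Gαq ERTU library 17, with a median deviation of 0.38, and WT ERTU library 15, with 0.36.

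By the rule of likeness over all 18 libraries, genes whose log2 CPM was among the most like that of Atp2a2 were Alpk2 (Pearson r = 0.963) and Stard7 (0.957). When deviations from the group means were used instead, they were Ptprm (0.962), Cpox (0.952) and Tmem8b (0.951). For Pln the correlations were lower, with Yipf7 (0.857), Mtfr1 (0.838) and Selenot (0.832) over all libraries and with Mtfr1 (0.899), Khdrbs3 (0.883) and Rnf14 (0.881) for deviations.

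The rest of the calcium apparatus was described with 7 lists of 91 genes, of which 82 were tested. The lists were chosen with earlier results of these data known. The shares called, here and for each list below, are thus a description and not a test of an excess. With genotype 27 of the 82 were called (32.9%, against 19.6% of all genes), 17 higher and 10 lower in Gαq, with a median log2 fold change of 0.07 against 0.00 over all genes. On CD it was 10 of 82, or 12.2% against 8.1% of all genes, with 8 higher (4.0% of all genes). On ERTU it was 12 of 82, or 14.6% against 8.17% of all genes, with 6 higher (3.93% of all genes). Either count was 6 without 1 of several libraries: WT CD library 1 or 2 or Gαq CD library 8 or 9 on CD, and WT ERTU library 11, 12 or 15 or Gαq ERTU library 18 on ERTU. In the comparisons of diets it was 0, against at most 0.00615% of all genes. The 9 genes not tested were Strit1, which had no match, and Ryr1, Cacng4, Cacng6, Rem2, Slc8a3, Camk4, Calb1 and Calb2, none of which reached 1 CPM.

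Of 12 tested regulators of SERCA 3 were called, 25.0% against 19.6% of all genes. S100a1, which binds the pump and the ryanodine receptor, rose by 0.24 ± 0.07 (log2, SE). Ppp1r3a and Ppp1cb, a targeting and a catalytic subunit of protein phosphatase 1, the enzyme that removes phosphate from phospholamban, fell by 0.37 ± 0.10 and 0.23 ± 0.07. Sln, which encodes sarcolipin, an inhibitor of the pump found mainly in atria, ran from 0.223 to 42.5 CPM in WT and from 0.0484 to 141.9 CPM in Gαq. It is also one of the 6 atrial markers above, and was not called.

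Of 19 tested partners of the SR release unit 4 rose and 3 fell, 36.8% against 19.6% of all genes called. Casq1, the calsequestrin of skeletal muscle, stood at 77.0, 74.4, 48.6 and 58.4 CPM in WT CD and at 238.5, 281.5, 206.5, 416.7 and 115.2 CPM in Gαq CD. In ERTU hearts Casq1 was at 41.1, 56.9, 34.0, 45.6 and 29.1 CPM in WT and 114.5, 185.7, 119.5 and 115.3 CPM in Gαq. Every Gαq library was above every WT library, a separation that 3.56% of genes tested showed, 1.73% in the higher direction. Casq1 rose by a log2 fold change of 1.83 ± 0.19 (3.55-fold, adjusted p = 9.21e-07). Per kilobase it was still below Casq2, at 129.0 ± 56.7 against 317.5 ± 52.8 CPM per kb (SD) in Gαq CD.

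Ryr3, another isoform of the ryanodine receptor, ran from 2.88 to 6.47 CPM in WT and from 6.50 to 15.6 CPM in Gαq. It also separated fully (1.73% of all genes did so in this direction), with a log2 fold change of 1.18 ± 0.18 (adjusted p = 4.88e-05). It remained far below Ryr2, at 0.533 against 38.6 CPM per kb in Gαq CD. Jsrp1, a junctional SR protein, rose by 0.98 ± 0.26 and was at most 1.22 CPM, and Itpr2, the inositol trisphosphate receptor of myocytes, fell by 0.42 ± 0.10. Casq1 is also in a list of 14 skeletal muscle markers, of which 8 were tested. Of these 5 rose (Acta1, Mybpc2, Tnnt3, Casq1 and Pvalb), against 9.72% of all genes. The summed level of that list was 308.8 to 1727 CPM in WT and 973.7 to 2738 CPM in Gαq. Acta1 made up most of this sum, with a mean of 1819.7 of 2244.8 CPM in Gαq CD and 724.5 of 890.9 CPM in WT CD. Tnni2, Mylpf and Atp2a1 were tested and not called. Myh1, Myh2, Myh4, Actn3 and Ryr1, which define skeletal fibres, were at most 1.7 CPM in any library. The part of skeletal muscle in the rise of Casq1 was not tested.

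Of 13 tested surface membrane channel genes 3 rose and 1 fell, 30.8% against 19.6% of all genes called. The called beta subunits of the L-type channel moved in opposite directions: Cacnb1 rose by 0.57 ± 0.11 (log2, SE) and Cacnb2, the more abundant of these, fell by 0.36 ± 0.12. The beta subunit genes Cacnb3 (0.25 ± 0.10, adjusted p = 0.07) and Cacnb4 (0.41 ± 0.15, adjusted p = 0.0614) had positive values and were not called. Per kilobase, Cacnb2 stood at 6.50 ± 1.64 CPM per kb (SD) in WT CD and 5.30 ± 0.678 in Gαq CD, and Cacnb1 at 2.71 ± 0.511 and 3.99 ± 0.522. The pore gene Cacna1d rose by 0.44 ± 0.14 and was at most 6.27 CPM, and Cacna2d2, which encodes an auxiliary subunit, rose by 1.01 ± 0.32. Cacna2d2 was not called without 1 of WT CD library 2 or 4, Gαq CD library 8, or Gαq ERTU library 18 or 20.

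Calcium extrusion and store-operated entry had 2 calls among 12 tested genes, 16.7% against 19.6% of all genes. The plasma membrane pump gene Atp2b3 fell by 1.6 ± 0.41 and was at most 1.39 CPM, and Orai2, which encodes a store-operated channel, rose by 0.58 ± 0.14 from 2.38 CPM in both WT groups. Of 9 tested kinase genes 3 were called, 33.3% against 19.6% of all genes. Camk1 rose by 0.43 ± 0.06. Its Gαq libraries (73.3 to 95.7 CPM) were all above its WT libraries (54.1 to 68.9 CPM), a separation that 1.73% of all genes showed. Camk2n2, an inhibitor of kinase II, rose by 0.64 ± 0.19 at no more than 2.68 CPM, and the isoform Camk2b fell by 0.40 ± 0.10.

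Of 9 mitochondrial calcium genes 3 were also called, 33.3% against 19.6% of all genes. Letm1 (-0.41 ± 0.09) and Mcur1 (-0.19 ± 0.06) fell and Micu2, a gatekeeper of the uniporter, rose by 0.23 ± 0.07. Of 8 tested calcium buffers 5 rose and 0 fell, against 9.72% of all genes that rose and 9.92% that fell with genotype. They were Rcn3 (0.66 ± 0.11), Sdf4 (0.41 ± 0.08), Calu (0.32 ± 0.07) and Rcn1 (0.27 ± 0.06), which encode calcium binding proteins of the secretory pathway, and Pvalb (2.10 ± 0.67), which was at most 2.86 CPM. The fibroblast markers rose in the same hearts, and their part in the rise of these buffers was not tested. Tnnc1, the calcium sensor of the myofilament, was not called (0.17 ± 0.08, adjusted p = 0.141).

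**Figure D5:**
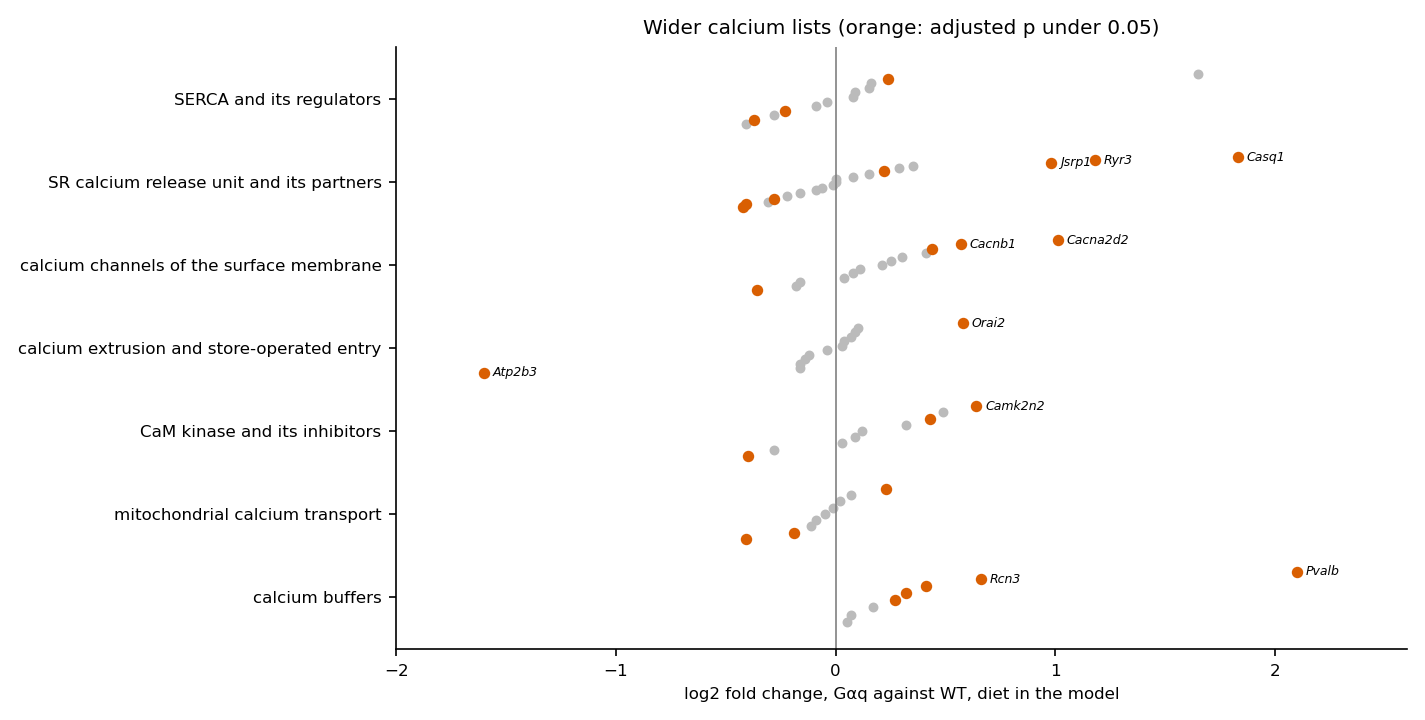
Log2 fold change with genotype (Gαq against WT, diet in the model) for the 82 tested genes of 7 calcium lists, 1 point per gene, ordered by value within its list; orange points passed an adjusted p of 0.05. The largest called changes are named; among called genes Pvalb (2.10), Casq1 (1.83) and Ryr3 (1.18) lie farthest to the right and Atp2b3 (-1.6) farthest to the left, and the gray point at 1.65 is Sln.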

How the data were processed

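RNA sequencing counts from LV of 18 mice were used. The deposited counts are whole read pairs per Ensembl gene, which the authors made with STAR 2.6.0c (mm10) and featureCounts of Subread 1.6.2 from poly(A) libraries (uniquely aligned proper pairs, same strand). The authors also deposited log2-like values from the variance-stabilizing transformation of DESeq2; recomputed from the counts they differed by at most 5.2e-11, and they were not tested. Symbols came from GENCODE M21 (55190 of 55450 IDs matched, 99.5%).

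Counts were tested in R 4.3.3 with edgeR 4.0.16 (filterByExpr, 16270 genes kept, 0.0906% of counts left out; TMM; quasi-likelihood F test; Benjamini-Hochberg over all genes, threshold 0.05). Genotype and diet came from a model with both factors, and the other comparisons from a model with 1 mean per group. The Pln to Atp2a2 ratio was tested by exact permutation of libraries, within the other factor for genotype and diet. Correlations used log2 CPM with a prior count of 2. Steps were tested on simulated data.

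Results were recomputed with DESeq2 1.42.0, limma 3.58.1 voom with quality weights, size factors by the median of ratios, all genes unfiltered, a mean CPM of at least 1, only the groups compared, 4 group means, medians for the ratio, leaving out 1 library, and leaving out the library with the highest atrial markers in each group, which was chosen after the marker levels were seen. The members and lists were chosen with earlier results of these data known. Of the wider lists, genes were named by the largest called genotype changes, up to 4 per list. Those with the 3 smallest p-values for ERTU in Gαq were named too. Strit1, other genes not tested, Sln, Tnnc1, Rcn1, Cacnb3, Cacnb4, Cep85l and marker genes are named outside these rules. Count columns carry a group and a number of the whole series, which were not linked to single samples. Each heart is 1 library, so p-values measure the spread between hearts. A gene that the rule of likeness named is not reported here.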

Additional observations from a re-analysis of the deposited data

Results flagged for a closer look

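In 2 of 44 groups of 4 or 5 libraries, 1 library stood apart from the others by Dixon's test at the 95% level, where chance alone gives about 2.2. Ryr2 in WT CD library 4 was 1694 CPM against 2119.8 to 2155 CPM in the other 3 libraries, a gap of 0.923 of the range. Without that library the genes called on CD were again Atp2a2 and Ryr2. Jph2 in Gαq ERTU library 17 was 573.2 CPM against 327.0 to 349.2 CPM in the other 3, a gap of 0.91 of the range, and without it Jph2 was called lower in Gαq on ERTU (log2 -0.80, adjusted p = 0.0446).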

How the results depend on the processing

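For the 10 genes, 476 of 480 fold changes under other settings kept their side of the threshold, as did 1246 of 1260 with 1 library left out. The sign changed in 10 and 58 of them, none called in either fit, where the reported log2 fold change was at most 0.11 in size. The count of the 10 called with genotype was 3 to 4 under other settings and 3 to 5 with 1 library left out, the 5 without Gαq ERTU library 17 (Cacna1c and Jph2 added). On CD it was 1 to 3 with 1 library left out, the 1 without WT CD library 1, and 1 without the highest atrial library of each group. On ERTU it was 2 to 4, and Ryr2 was not called with only the groups compared (-0.78, adjusted p = 0.0919). Of the wider lists, the count on CD was 6 to 13 with 1 library left out (6 without WT CD library 1 or 2 or Gαq CD library 8 or 9) and 6 without the atrial libraries. On ERTU it was 6 to 15 with 1 library left out (6 without WT ERTU library 11, 12 or 15 or Gαq ERTU library 18), and 20 by limma voom.

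The ratio of Pln to Atp2a2 on CD was 0.87 higher by medians (log2, adjusted p = 0.0952), 0.73 without the atrial libraries (adjusted p = 0.114) and 0.81 to 1.01 with 1 library left out. On ERTU it was 0.97 (adjusted p = 0.0952), 0.92 (adjusted p = 0.114) and 0.74 to 0.91. With a library of the comparison left out the smallest exact p is 0.0286 or 0.0357, which adjustment takes to 0.0571 or 0.0714, and without the atrial libraries it is 0.0571. The losses of the call with libraries left out were set by the number of splits and say nothing of stability, and the groups still did not overlap. By medians all libraries were kept, and the exact permutation p was 0.0476 on each diet before adjustment. No paired analysis was possible because the count columns carry no replicate number that groups share. Depth did not limit the 10 genes, with at least 1986 counts in every library.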

Other observations

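Of the wider calcium lists, the 3 genes with the smallest unadjusted p for ERTU in Gαq were Casq1, Atp2a3 and Fkbp1a, and none passed adjustment (adjusted p = 0.653 for each). Casq1 was lower on ERTU, with 115.2 to 416.7 CPM in Gαq CD and 114.5 to 185.7 CPM in Gαq ERTU (log2 fold change -0.91 ± 0.27, SE, unadjusted p = 0.00321). In WT it was also lower on ERTU (-0.64 ± 0.27, adjusted p = 1.0), and the interaction was -0.27 (95% interval -1.06 to 0.53). Atp2a3, which encodes the SERCA3 pump of non-muscle cells, was 20.1 to 32.0 CPM in Gαq CD and 34.3 to 44.5 CPM in Gαq ERTU (0.53 ± 0.20). These values did not overlap, as for 1.6% of all genes between diets in Gαq. Fkbp1a, which encodes a protein that binds ryanodine receptors, was 141.5 to 196.0 CPM in Gαq CD and 130.0 to 142.5 CPM in Gαq ERTU (-0.23 ± 0.09). Gnaq was 1640.9 to 11672 CPM in Gαq CD and 2236 to 5207 CPM in Gαq ERTU.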
